A study of Mus musculus with 47 samples.

Results

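The genes described here are 34 genes of the lysosome, listed by name for what their proteins do. The list was made with earlier results of these data known. All 34 are in the acute table, with 23393 named genes, and in the chronic tables, with 21034. They comprise 7 cysteine cathepsins, 3 other proteases, 8 glycan hydrolases, 7 lipid hydrolases or their cofactors, 6 membrane glycoproteins and 3 channels or transporters. RNA was sequenced in 47 libraries from brains of wild-type C57BL/6 mice fed cuprizone, a copper chelator that kills oligodendrocytes, or left untreated. The acute set holds 7 libraries of corpus callosum, with 1 from an untreated mouse aged 2 months, 3 after 3 weeks of cuprizone, and 3 after 5 weeks of cuprizone and 1 week on normal chow (5+1 weeks). The chronic set holds 40 libraries from mice given cuprizone for 12 weeks (12 weeks), with 4, 8 or 12 further weeks on normal chow (12+4, 12+8 and 12+12 weeks), and from untreated mice aged 8 months. Its corpus callosum groups have 2, 2, 3, 2 and 3 libraries in that order, its hippocampus groups 3, 3, 2, 2 and 3, and its cortex groups 3, 3, 3, 2 and 4. By the feeding schedule the 12-week mice were younger than their untreated controls, so that age and cuprizone cannot be told apart there. By the same schedule the acute mice fed cuprizone were older than the untreated mouse aged 2 months, and the same limit holds. Age and time off cuprizone cannot be told apart either. Every 12+12-week library is labelled female.

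Lysosomes are acidic organelles in which cells break down proteins, glycans and lipids delivered by endocytosis, phagocytosis and autophagy. In demyelinated white matter, microglia and macrophages take up myelin debris, and the sphingolipids of that debris are degraded by lysosomal hydrolases with the help of saposins. Most of the enzymes are made in every brain cell, whereas *Cd68*, *Laptm5*, *Slc11a1* and *Ctss* are expressed in the brain mainly by microglia and macrophages. Transcription of many lysosomal genes is driven by TFEB and its relatives, which bind an E-box with flanking bases known as the CLEAR element.

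The promoters show which members carry such an E-box close to the start of the transcript. RefSeq promoters (build GRCm38.p6, 250 bases before to 50 after the start) were found for 31 of the 34 genes. The letters GTCACGTG, on either strand, were in 8 of these 31 (25.8%) and in 2.55% of all 27025 genes with a promoter. The shorter core CACGTG, which lies within those letters, was in 10 of 31 (32.3%) and in 8.09% of all genes. The letters GAGGAAGT, a sequence that the myeloid factor PU.1 can bind, were on either strand in *Ctsc*, *Ctss*, *Gla* and *Gusb*, 4 of 31 (12.9%), against 3.69% of all genes. A match of letters is a description and not a binding site. One stretch with the E-box is shown for each of the 8 genes, read along the gene's own strand, with the 8 matching bases in capitals, so that the shared core and the differing flanks can be compared.
*Ctsd* (7:142387902-142387941, minus strand): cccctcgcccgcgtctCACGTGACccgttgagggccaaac
*Ctsa* (2:164833743-164833782, plus strand): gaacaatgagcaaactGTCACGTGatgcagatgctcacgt
*Gla* (X:134601178-134601217, minus strand): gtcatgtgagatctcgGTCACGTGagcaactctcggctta
*Glb1* (9:114401012-114401051, plus strand): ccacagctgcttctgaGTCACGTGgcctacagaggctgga
*Naglu* (11:101070003-101070042, plus strand): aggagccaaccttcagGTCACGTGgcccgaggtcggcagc
*Arsa* (15:89477419-89477458, minus strand): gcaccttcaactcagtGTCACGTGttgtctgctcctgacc
*Lamp1* (8:13159117-13159156, plus strand): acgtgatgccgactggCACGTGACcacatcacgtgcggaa
*Mcoln1* (8:3500430-3500469, plus strand): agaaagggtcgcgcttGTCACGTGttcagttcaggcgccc
The first matching base lay between −196 (*Gla*) and −14 (*Ctsa*) relative to the start. *Ctsa*, *Ctsd* and *Mcoln1* each held a further copy. Of the genes that stood furthest from naive after 3 weeks of cuprizone, *Ctsd* is among the 8, and *Cd68*, *Ctsz*, *Gusb*, *Grn* and *Slc11a1* are not. Only 31 of the 34 could be searched, so that a gene outside the 8 need not lack the letters. *Gusb* carries the letters GAGGAAGT. Whether these sequences have a part in the differences was not tested.

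Values are on a log2 scale. In the acute table they are levels, and in the chronic tables each gene is centred on a mean shared by the 3 regions, so that 0 is no absence of RNA. The files hold no counts, so the depth behind each value cannot be read from them. Replicate 1 of the 5+1 weeks stands apart in the acute set, with a standard deviation of gene differences of 0.83 to 1.06 against every other library, and its sex-linked genes match neither sex, with *Xist* between the levels of the other libraries and Y-linked genes at the lower level. Libraries that match neither sex are called mixed here. In the hippocampus 8 of 13 were mixed, with both measures between those of male and female cortex, against 1 of 12 in the corpus callosum and 1 of 15 in the cortex, where 1 measure was displaced. Neither the animal behind each library nor the independence of replicates is given, so that p-values measure the spread between libraries. The 12 mature oligodendrocyte markers averaged 0.40 to 1.48 in naive corpus callosum, −0.56 to −0.32 in naive hippocampus and −0.68 to −0.38 in naive cortex, and the 10 neuronal markers averaged −0.41 to −0.02, 0.02 to 0.06 and 0.17 to 0.45, in the order of the labelled regions. Neuronal RNA was present in the callosal pieces as well, with a mean level of 12.5 over the neuronal markers in the acute naive library.

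After 3 weeks of cuprizone most lysosomal genes of the corpus callosum lay above the naive library, led by *Cd68*, *Ctsd*, *Ctsz*, *Gusb*, *Grn* and *Slc11a1*. The median log2 difference of the 34 was 0.47, against 0.018 over all 14536 genes tested, and 30 of 34 differences were above 0. In 29 of the 34 all 3 libraries exceeded the naive one, which held for 36.1% of all genes, and in 4 (*Ctsf*, *Arsa*, *Galc* and *Mcoln1*) all 3 lay below it, which held for 30.7% of all genes. None passed the threshold of an adjusted p of 0.05 in limma (Benjamini-Hochberg over all genes). In this comparison 0 of all genes did, a share of 0% in either direction, although 13 of the 34 and 668 of all genes had an unadjusted p below 0.05. The smallest adjusted p among the members was 0.17 (*Cd68*). On simulated data the acute fit of 7 libraries did not recover planted changes of 0.5 or 1 log2 unit, and larger ones were not planted. The lack of calls in the acute set therefore does not show that levels were alike.

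*Cd68*, a heavily glycosylated membrane protein of phagocyte lysosomes, measured 7.54 in the naive library and 9.34, 9.52 and 9.47 after 3 weeks, a log2 difference of 1.90 ± 0.26 (standard error). *Ctsd*, the main aspartic protease of the lysosome, measured 12.82 against 14.24, 14.26 and 14.22 (1.42 ± 0.22, adjusted p = 0.172 in limma). The 3 libraries of the group lay within 0.2 log2 units of each other for both genes and far above the single naive value. *Gusb*, which removes glucuronic acid from glycosaminoglycans, measured 8.00 against 9.19, 9.30 and 9.25 (1.25 ± 0.19), and *Grn*, which encodes the lysosomal and secreted protein progranulin, 9.95 against 11.08, 11.18 and 11.19 (1.20 ± 0.27). *Slc11a1*, a divalent metal transporter of the phagosome membrane, measured 5.90 against 7.11, 7.05 and 6.84 (1.10 ± 0.35).

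**Figure D1:**
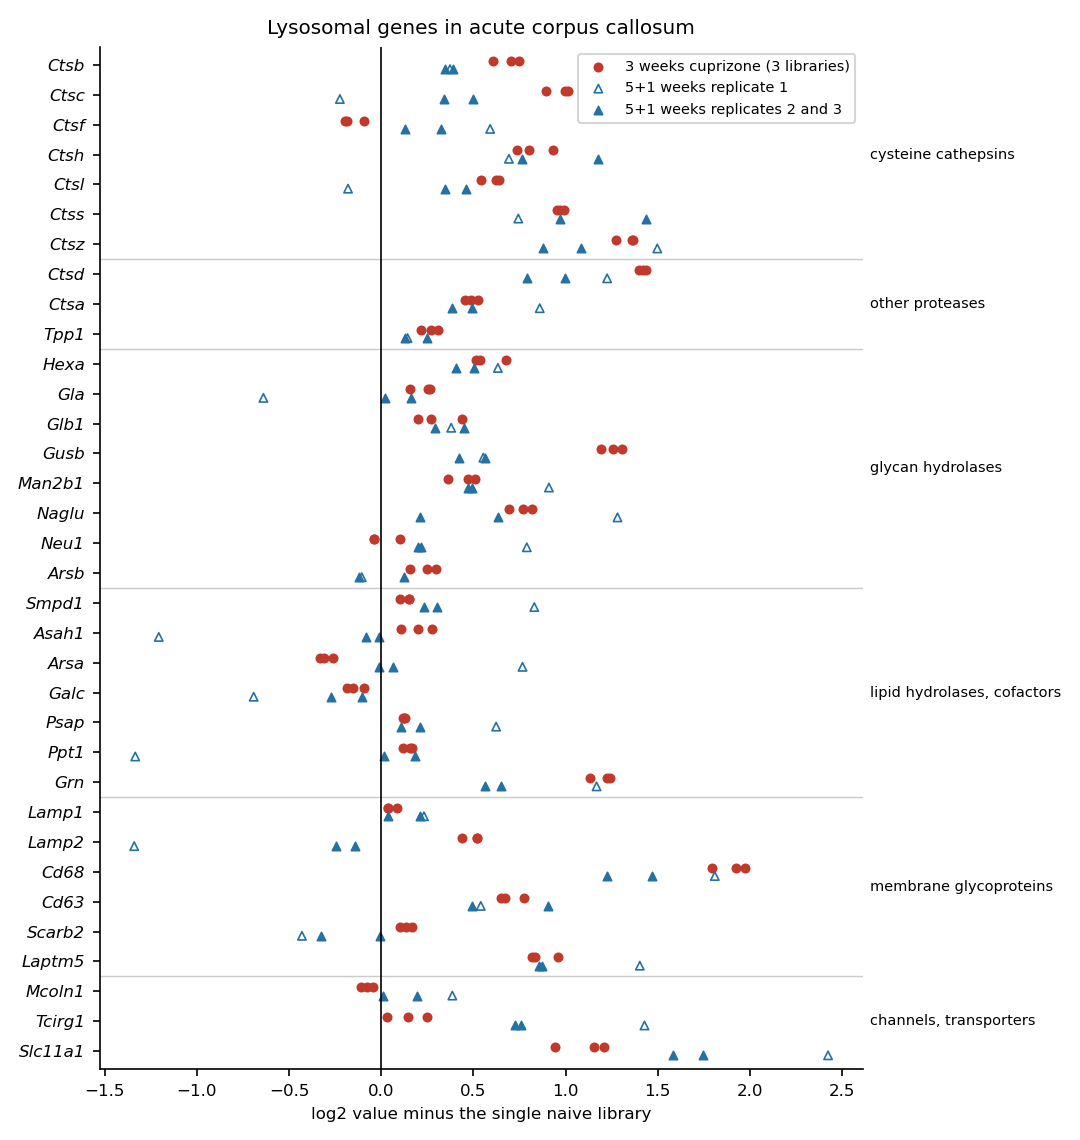
Log2 value of each lysosomal gene in the acute corpus callosum minus its value in the single naive library (x axis), with genes grouped by role (y axis). Circles are the 3 libraries after 3 weeks of cuprizone, filled triangles replicates 2 and 3 of the 5+1 weeks, and open triangles replicate 1, which stands apart. *Cd68* shows the largest difference at 3 weeks, 1.90 over the group, and *Slc11a1* the largest at 5+1 weeks, 1.92.

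Among the cysteine cathepsins, *Ctsz* differed most from naive, by 1.33 ± 0.26. *Ctsc*, which activates granule serine proteases, and *Ctss*, which trims the invariant chain of MHC class II, both differed by 0.97, and *Ctsh*, *Ctsb* and *Ctsl* by 0.82, 0.69 and 0.60. *Ctsf* was the exception, at −0.16. Among the glycan hydrolases *Naglu* and *Hexa*, which cleave terminal N-acetylhexosamines of heparan sulfate and of gangliosides, followed *Gusb* with 0.76 and 0.58, while *Neu1*, the sialidase, differed by 0.008. The lipid hydrolases stood lower, with *Asah1* (acid ceramidase) at 0.19, *Smpd1* (acid sphingomyelinase) at 0.13, *Galc*, which degrades the myelin lipid galactosylceramide, at −0.14 and *Arsa*, which degrades sulfatide, at −0.30. The membrane glycoproteins other than *Cd68* spread widely, with *Laptm5* at 0.87 ± 0.26, *Cd63* at 0.70 ± 0.23, *Lamp2* at 0.49, *Scarb2*, an abundant membrane protein of the lysosome, at 0.13 ± 0.22 and *Lamp1* at 0.052 ± 0.19. The remaining members lay between, with *Ctsa* at 0.49, *Man2b1* at 0.45, *Glb1*, the beta-galactosidase of GM1 ganglioside, at 0.30, *Tpp1* at 0.26, *Arsb* and *Gla*, the alpha-galactosidase of globotriaosylceramide, at 0.23, *Ppt1*, which removes palmitate from proteins, at 0.15, *Tcirg1* at 0.14 and *Psap* at 0.12. By role, the medians were 0.82 for cysteine cathepsins, 0.60 for membrane glycoproteins, 0.49 for the other proteases, 0.38 for glycan hydrolases, 0.14 for channels and transporters and 0.13 for lipid hydrolases and their cofactors. The last group includes *Grn*, which stood far above its median. In this ordering the members with the largest differences were mostly proteases and phagocyte membrane proteins, and the enzymes of myelin sphingolipids differed by at most 0.30 in either direction.

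Markers of several cell types also differed from naive, in either direction. The 14 markers of microglia and macrophages had a median log2 difference of 0.81, and their mean level was 8.75 in the naive library and 9.61 to 9.68 after 3 weeks. Within that list *Csf1r*, *P2ry12* and *Tmem119* differed by 0.62, 0.20 and 0.23. The 8 astrocyte markers had a median of 0.20, with means of 11.7 in the naive library and 12.1 to 12.3 at 3 weeks. The 12 mature oligodendrocyte markers had a median of −2.35, with means of 11.4 in the naive library and 8.18 to 9.90 at 3 weeks. The 8 peripheral myeloid markers averaged 3.58 in the naive library and 3.91 to 4.28 at 3 weeks, and the 6 lymphocyte markers 0.72 and 0.58 to 1.06. Of these, 3 and 0 passed the filter on low values. In bulk tissue more cells of a type cannot be told apart from more RNA per cell, and the part of cell numbers in these differences was not tested. Leaving out replicate 1 of the 5+1 weeks, which enters only through the shared estimate of spread, kept these differences and gave 8 calls of 34. These were *Cd68* (adjusted p = 0.00871 in limma), *Grn*, *Ctsz*, *Gusb*, *Ctsd*, *Laptm5*, *Ctsc* and *Slc11a1* (0.0381), all higher. With estimated library weights 20 members were higher and 1 lower, and with correction for transcript length and GC content 7 were called. The shares of all genes called in these fits are not given here. The counts alone therefore do not set the members apart from other genes.

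At 5+1 weeks the lysosomal genes were still mostly above naive, and none passed the threshold, while 1 of all genes did (0.00688% of genes higher, 0% lower). The median difference of the 34 from naive was 0.39, against 0.0077 over all genes, with 27 above 0. Of the 34, 14 had an unadjusted p below 0.05, as did 824 of all genes. In 24 of 34 all 3 libraries exceeded the naive one, against 30.5% of all genes, and in *Asah1*, *Galc*, *Lamp2* and *Scarb2* all 3 lay below it, against 28.0%. *Slc11a1* measured 8.32, 7.48 and 7.64 against 5.90 (1.92 ± 0.35, adjusted p = 0.443 in limma). *Cd68* measured 9.35, 8.77 and 9.01 against 7.54 (1.50 ± 0.26). Every library of the group exceeded the naive one for both genes. The 14 microglial markers averaged 9.36 to 9.50 against 8.75 in the naive library, and their part was not tested. Across genes the difference from naive rose with GC content (Spearman 0.763), and after correction for length and GC content *Cd68* stood at 1.04. *Slc11a1* has a GC content of 55.4%, and its corrected difference is not given here. The naive library correlated with GC content at −0.57 and replicates 2 and 3 at 0.028 and 0.040, so that libraries differ in this respect without replicate 1 too. Without replicate 1, *Slc11a1*, *Cd68*, *Ctsz* and *Laptm5* were called, with differences of 1.67, 1.34, 0.98 and 0.86 and adjusted p from 0.0392 to 0.0491 in limma. The share of all genes called in that fit is not given here.

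Compared directly between 5+1 and 3 weeks, the lysosomal genes lay on either side of 0, and the share of members whose groups were apart was close to that of all genes. No member passed, and 0% of all genes did in either direction, although 10 of the 34 and 3515 of all genes had an unadjusted p below 0.05. The median of the 34 was −0.057. In 7 members the 5+1-week libraries all exceeded the 3-week ones, against 20.9% of all genes, and in 9 they all lay below, against 22.8%. *Tcirg1*, a subunit of the proton pump, measured 9.16, 8.46 and 8.49 at 5+1 weeks against 7.76, 7.98 and 7.87 at 3 weeks (0.83 ± 0.22, adjusted p = 0.176 in limma), and its naive value was 7.73. *Lamp2*, the receptor of chaperone-mediated autophagy, measured 8.62, 9.72 and 9.81 against 10.39, 10.48 and 10.48 (−1.07 ± 0.31), and its naive value was 9.96. The groups did not overlap for either gene, and replicate 1 lay at the far end of both. *Gusb* stood at 8.55, 8.42 and 8.56 at 5+1 weeks, between naive and 3 weeks (−0.74 ± 0.14 against 3 weeks, adjusted p = 0.14).

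Without replicate 1, 10 members were called between 5+1 and 3 weeks, and the share of all genes called in that fit is not given here. *Gusb* (−0.76), *Lamp2* (−0.69), *Grn* (−0.60), *Cd68* (−0.55), *Ctsc* (−0.55) and *Ctsd* (−0.53) were lower, and *Tcirg1* (0.60), *Slc11a1* (0.57), *Ctsf* (0.38) and *Arsa* (0.33) were higher, with adjusted p from 0.0217 to 0.0453. Across 13674 genes, which are not independent replicates, the difference rose with the GC content of the transcript (Spearman 0.764). Replicate 1 had a correlation of 0.853 with GC content, the other 5+1-week libraries 0.028 and 0.040, and the 3-week libraries −0.68 to −0.59. *Lamp2* has a GC content of 38.7% and *Tcirg1* of 58.6%. Corrected for length and GC content their differences were −0.33 (adjusted p = 0.114) and 0.41 (adjusted p = 0.11), and that of *Ctsf* was 0.027. *Gusb*, *Grn*, *Ctsd*, *Cd68* and *Ctsz* were the members called after the correction, all lower at 5+1 weeks, by −0.94, −0.83, −0.86, −0.84 and −0.78. For the corrected fit the share of all genes called is not given either.

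In the chronic corpus callosum, 12 weeks of cuprizone left the lysosomal genes near the naive level as a group, with a median difference of 0.0019 against 0.00059 over all 17054 genes. Of the 34, 2 were higher and 4 lower, while 9.98% of all genes were higher and 9.77% lower, so that the members' share was close to that of all genes. Groups did not overlap in 6 members upward, against 24.8% of all genes, and in 6 downward, against 25.1%. The genes that fell were *Ctss*, *Cd63*, *Hexa* and *Ctsl*. Those that rose were *Mcoln1* and *Man2b1*.

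*Ctss* measured 0.68, 0.42 and 0.22 in naive mice and 0.01 and −0.25 at 12 weeks (−0.56 ± 0.17, adjusted p = 0.0412 in limma). *Cd63*, a tetraspanin of late endosomes and exosomes, measured 0.59, 0.17 and 0.36 against −0.11 and −0.24 (−0.55 ± 0.15, adjusted p = 0.0276), and *Hexa* 0.30, 0.06 and 0.25 against −0.21 and −0.30 (−0.46 ± 0.11, adjusted p = 0.016). Both 12-week libraries lay below every naive one for these genes. *Ctsl*, a broad endopeptidase, measured 0.28, 0.16 and 0.36 against 0.03 and −0.01 (−0.26 ± 0.08, adjusted p = 0.0402). *Mcoln1*, the calcium channel of the lysosomal membrane whose opening activates TFEB, measured −0.04, −0.07 and −0.01 against 0.35 and 0.33 (0.38 ± 0.09, adjusted p = 0.0148). *Man2b1*, an alpha-mannosidase of glycoprotein breakdown, measured −0.03, −0.27 and −0.19 against 0.22 and 0.15 (0.35 ± 0.10, adjusted p = 0.0299). For *Mcoln1* and *Man2b1* the groups were likewise apart. *Ctsz* (−0.41), *Lamp1* (−0.25) and *Laptm5* (−0.33) did not pass, with adjusted p of 0.0512, 0.131 and 0.159. The other members that did not pass ranged up to 0.31 (*Slc11a1*). By role, the medians were −0.20 for membrane glycoproteins, −0.16 for cysteine cathepsins, 0.02 for lipid hydrolases and their cofactors, 0.03 for glycan hydrolases and 0.31 for channels and transporters.

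Of the members with the largest differences at 3 weeks none was called here. *Cd68* stood at 0.16 ± 0.12, *Ctsd* at −0.07, *Gusb* at −0.04, *Grn* at −0.07, *Ctsz* at −0.41 and *Slc11a1* at 0.31. *Ctsz* was called under 4 alternatives, with adjusted p from 0.0308 to 0.0428 in limma. Cell type markers also differed, and not all in the direction of the called members, of which *Mcoln1* and *Man2b1* rose. Of the neuronal markers *Camk2a* was called higher, by 0.39 (adjusted p = 0.0391 in limma). Of the 12 oligodendrocyte markers 8 fell, with a median of −1.11 and list means of 0.40 to 1.48 in naive libraries against −0.30 to −0.24 at 12 weeks. Of the 14 microglial markers 3 fell, with a median of −0.36 and list means of 0.07 to 0.44 against −0.17 to −0.07. Their part in the change of *Ctss*, *Cd63* and *Hexa* was not tested. Each call rests on the 2 libraries at 12 weeks, and without replicate 1 or replicate 2 of that group 0 members were called. Without naive replicate 1 there were 3, and *Ctss* then stood at −0.44 (adjusted p = 0.107). With the correction for length and GC content *Ctss* (−0.38) and *Man2b1* (0.30) did not pass, with adjusted p of 0.146 and 0.0679, and *Ctss* also failed without a filter and with sex as a term. *Ctsl* did not pass with the replicate block (adjusted p = 0.0789), with sex as a term (0.0506) or in the fit over all 3 regions (0.0503), and its call was lost in 9 of 12 fits that left out 1 library.

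**Figure D2:**
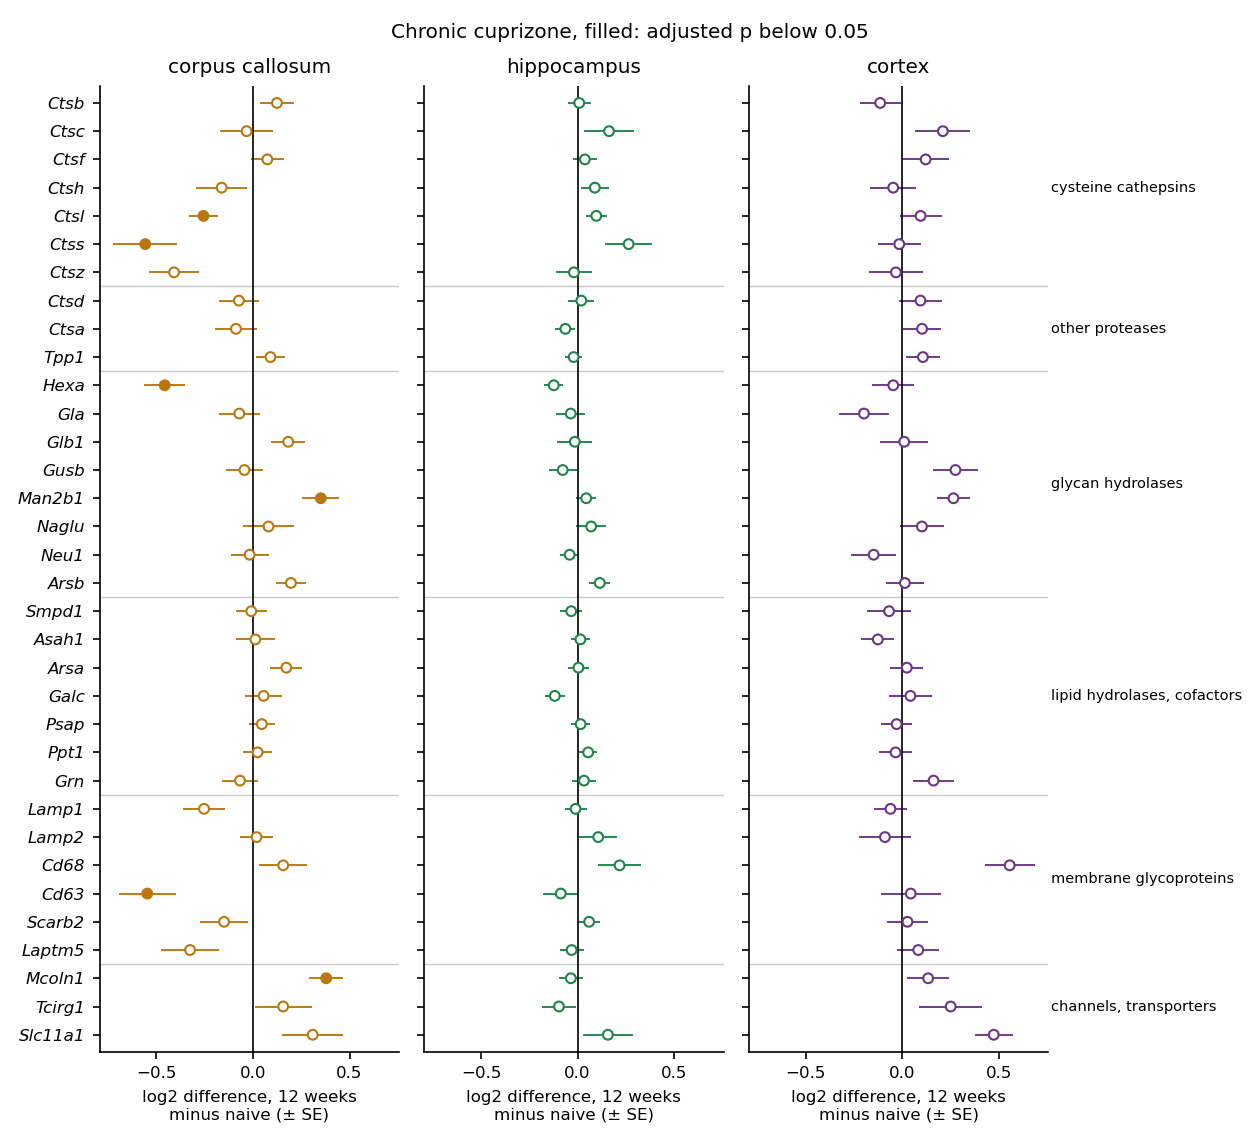
Log2 difference of each lysosomal gene between 12 weeks of cuprizone and naive (x axis, with bars of 1 standard error) in the 3 chronic regions, with genes grouped by role (y axis). Filled points passed an adjusted p of 0.05 over all genes, and they are 6 in the corpus callosum and 0 in the hippocampus and the cortex.

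During recovery of the chronic corpus callosum no lysosomal gene passed against 12 weeks. Of all genes 0% were called at 12+4 and at 12+8 weeks, and 0.334% higher and 0.111% lower at 12+12 weeks. The median of the members was 0.11 at 12+4 weeks, −0.034 at 12+8 weeks and 0.074 at 12+12 weeks. In that order 6, 2 and 4 members had an unadjusted p below 0.05, against 2006, 1369 and 2840 of all 17054 genes. *Hexa* had the smallest adjusted p, 0.128 at 12+12 weeks, where it measured 0.29 and 0.03 (0.42 ± 0.12 above 12 weeks). Its values were 0.17 and 0.01 at 12+4 weeks and 0.10, 0.01 and −0.05 at 12+8 weeks, all above both 12-week libraries. *Cd63* measured 0.32 and 0.26 at 12+4 weeks, −0.14, −0.35 and 0.11 at 12+8 weeks and 0.15 and 0.00 at 12+12 weeks, and the 12+8-week values overlapped those at 12 weeks. With 1 fit over all 3 regions, an alternative chosen after seeing the data, *Hexa* was called at 12+12 against 12 weeks (adjusted p = 0.0227).

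Between 12+12 weeks and naive 5 lysosomal genes differed, 4 higher and 1 lower, against 9.35% and 9.04% of all genes, so that the share of members higher was near that of all genes. Of the cell type markers *P2ry12* (microglia) was called lower, by −0.44, and *Rgs5* (mural cells) higher, by 0.32. Other microglial markers did not follow *P2ry12*, with *Csf1r* at 0.37 and *Tmem119* at −0.03, neither of them called. The 14 microglial markers averaged −0.21 to 0.28 at 12+12 weeks and 0.07 to 0.44 in naive libraries. The part of these markers was not tested. *Tcirg1* measured 0.74 and 0.54 at 12+12 weeks and 0.38, −0.14 and −0.04 in naive mice (0.57 ± 0.15, adjusted p = 0.025 in limma). *Tpp1*, a tripeptidyl peptidase, measured 0.22 and 0.23 against 0.00, −0.14 and −0.06 (0.29 ± 0.08, adjusted p = 0.0276). Both groups were apart for these genes, and *Tcirg1* was above its naive mean in every recovery library of the corpus callosum. *Man2b1* was higher by 0.38 and *Mcoln1* by 0.34, while *Ctsl* was lower by −0.32 (adjusted p = 0.0226, 0.0242 and 0.018). These 3 were also called at 12 weeks, but both comparisons use the same naive libraries. *Mcoln1* was lost under quantile normalization, library weights and the replicate block, *Tpp1* under library weights, the replicate block and sex as a term, and *Ctsl* under library weights (adjusted p = 0.0575). *Ctss* and *Cd63* stood at −0.41 and −0.30 and did not pass, with adjusted p of 0.119 and 0.191. Leaving out 1 library left 0 members called without 12+12-week replicate 1, and 1 each without 12+12-week replicate 2, naive replicate 2 or naive replicate 3.

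**Figure D3:**
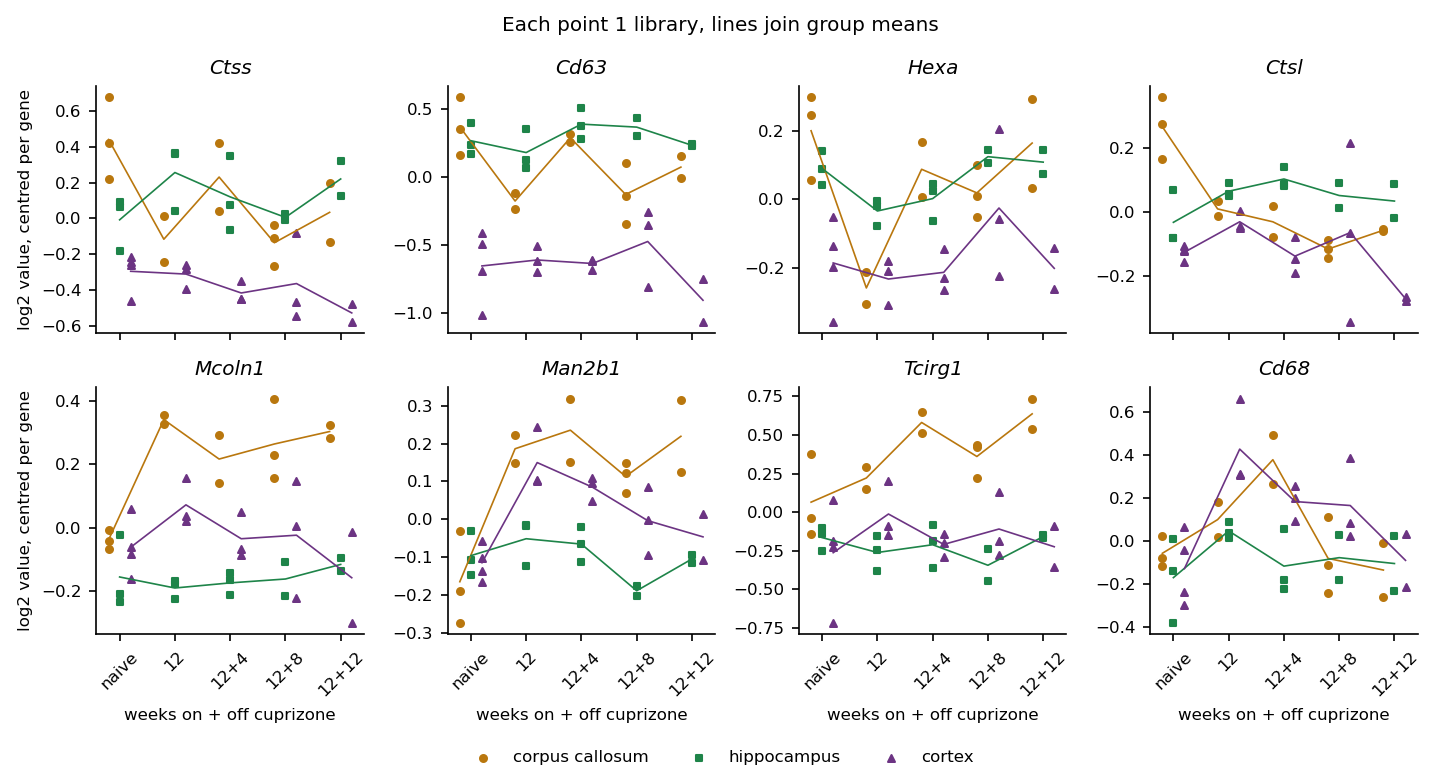
Centred log2 values (y axis) of 8 lysosomal genes in every chronic library, by weeks on and off cuprizone (x axis). Points are single libraries, lines join group means, and colour and shape give the region. In the corpus callosum *Ctss*, *Cd63*, *Hexa* and *Ctsl* are lower at 12 weeks than in naive mice, and *Mcoln1* and *Man2b1* are higher.

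In the hippocampus 12 weeks of cuprizone gave no call for a lysosomal gene, and 0% of all genes in either direction. The median of the members was 0.011, with 19 of 34 above 0 and 2 at an unadjusted p below 0.05, against 1741 of all genes. Groups did not overlap in 2 members upward (*Arsb* and *Cd68*), against 11.1% of all genes, and in 2 downward (*Hexa* and *Gusb*), against 10.9%. *Ctss* measured −0.18, 0.06 and 0.09 in naive mice and 0.04, 0.36 and 0.36 at 12 weeks (0.26 ± 0.12, adjusted p = 0.496 in limma), with overlapping groups. *Hexa* measured 0.04, 0.09 and 0.14 against 0.00, −0.08 and −0.02 (−0.12 ± 0.05, adjusted p = 0.45). The oligodendrocyte markers had a median of −0.52 with 0 of 12 called.

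Recovery of the hippocampus brought 1 call. At 12+4 weeks 0% of all genes were called, and at 12+8 weeks 0.0704% higher and 0.123% lower, with no member among them. At 12+12 against 12 weeks 6.53% of all genes were higher and 6.72% lower, and of the members *Neu1* rose. It measured 0.08, 0.04 and 0.07 at 12 weeks and 0.25 and 0.33 at 12+12 weeks (0.23 ± 0.06, adjusted p = 0.0254 in limma). The naive libraries measured 0.05, 0.16 and 0.11, and against them the difference of 0.19 did not pass (adjusted p = 0.12). The 12+12-week libraries exceeded all others of the region. *Arsb*, which cleaves sulfate from dermatan sulfate, and *Ctsa*, which forms a complex with neuraminidase and beta-galactosidase, stood at −0.20 and 0.18 with adjusted p of 0.0524 and 0.0692. All 12 oligodendrocyte markers rose in this comparison (median 1.27), as did 4 of 10 neuronal, 4 of 8 endothelial and mural and 2 of 6 choroid plexus and ependymal markers, and 1 of 8 astrocyte markers fell. Their part was not tested. The call of *Neu1* was lost without either 12+12-week replicate or without 12-week replicate 2 or 3. It was also lost without the libraries of mixed sex-linked genes, which leaves 1 library a group, with a difference of 0.29, with the replicate block (adjusted p = 0.0814) and in the fit over all 3 regions (0.292). Without either 12+8-week replicate 2 members were called. Against naive, 0.839% of all genes were higher and 1.38% lower at 12+12 weeks, and 0 members.

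In the cortex *Slc11a1* and *Cd68* stood furthest from naive at 12 weeks, and neither passed the threshold over all genes, which 0.0586% of genes passed upward and 0.00586% downward. *Cd68* measured −0.04, −0.24, −0.30 and 0.07 in naive mice and 0.31, 0.31 and 0.66 at 12 weeks (0.56 ± 0.13, adjusted p = 0.216 in limma). *Slc11a1* measured −0.31, −0.53, −0.29 and −0.18 against 0.22, 0.10 and 0.12 (0.47 ± 0.10, adjusted p = 0.136). The groups did not overlap for either gene. Nor did they in *Ctsl*, *Ctsa*, *Gusb*, *Man2b1* and *Grn*, so that 7 of 34 were apart upward, against 4.94% of all genes, and 0 downward, against 7.66%. The median of the members was 0.034, 4 had an unadjusted p below 0.05 against 1576 of all genes, and the 14 microglial markers had a median of 0.02 with 0 called. In the fit over all 3 regions *Cd68*, *Man2b1* and *Slc11a1* passed, with adjusted p of 0.0252, 0.0414 and 0.0472.

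During recovery of the cortex most lysosomal genes lay below their 12-week values, and none passed the threshold. At 12+4, 12+8 and 12+12 weeks 0.00586%, 0% and 0.0117% of all genes were higher and 0.0235%, 0.0176% and 0.0645% lower, and 0 members. The members' median against 12 weeks was −0.036, −0.026 and −0.19, and 11, 14 and 7 of 34 differences were above 0. *Cd68* measured 0.26, 0.20 and 0.10 at 12+4 weeks, 0.39, 0.09 and 0.02 at 12+8 weeks and 0.03 and −0.21 at 12+12 weeks, back within the naive range at the last time. *Slc11a1* measured −0.30 and −0.29 at 12+12 weeks (−0.44 ± 0.12 against 12 weeks, adjusted p = 0.164), and *Gusb* −0.32 and −0.40 against 0.11, 0.18 and 0.18 (−0.51 ± 0.14, adjusted p = 0.164). For these 2 genes the groups at 12 and 12+12 weeks were apart. In the fit over all 3 regions *Gusb* and *Cd68* passed at 12+12 against 12 weeks, with adjusted p of 0.00996 and 0.033. Against naive 0% of all genes and 0 members were called at 12+12 weeks, where 3 members and 1596 of all genes had an unadjusted p below 0.05.

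The untreated regions differed from each other in many of these genes, led by *Cd63*, *Ctss*, *Ctsz* and *Lamp1*. Naive corpus callosum stood above naive cortex in 13 members and below it in 1, against 21.7% and 21.4% of all genes, with a median of 0.19 over the 34. *Cd63* measured 0.59, 0.17 and 0.36 in corpus callosum and −0.69, −0.41, −0.50 and −1.02 in cortex (1.03 ± 0.13, adjusted p = 4.24e-07 in limma). *Ctss* differed by 0.74 ± 0.12, *Ctsz* by 0.61 ± 0.12 and *Lamp1*, the main glycoprotein of the lysosomal membrane, by 0.47 ± 0.07. *Ctsl*, *Hexa*, *Ctsf*, *Ctsa*, *Grn*, *Slc11a1*, *Ctsd*, *Arsa* and *Psap*, the saposin precursor, were higher by 0.20 to 0.39. *Arsb* was lower by −0.27. With the correction for length and GC content *Ctsd* (0.12), *Psap* (0.10) and *Slc11a1* (0.23) were no longer called, and *Slc11a1* was also lost under quantile normalization, library weights and the replicate block (0.31), the last of which also ended the call of *Psap* (0.12). Of the microglial markers 8 of 14 and of the oligodendrocyte markers 12 of 12 were higher in corpus callosum, and 6 of 10 neuronal markers were lower. According to the methods, cortex was sequenced with shorter reads on another instrument than the other regions, so that instrument and region cannot be told apart in contrasts with cortex.

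**Figure D4:**
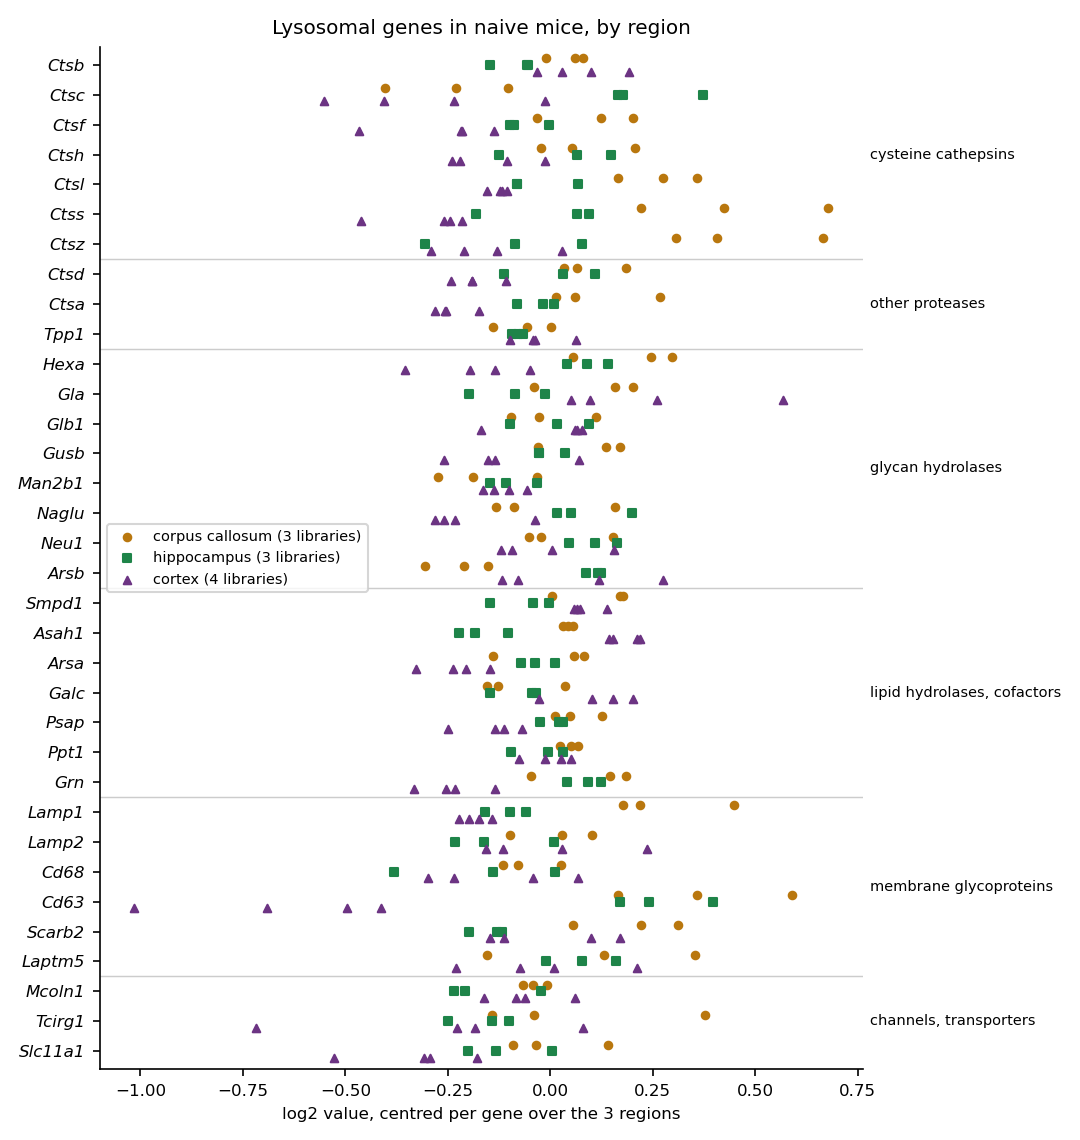
Centred log2 values (x axis) of the lysosomal genes in naive mice, with genes grouped by role (y axis). Points are single libraries of corpus callosum (circles), hippocampus (squares) and cortex (triangles). *Cd63* is the gene with the widest gap, with every cortex library below −0.4 and every other library above 0.1.

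Corpus callosum and hippocampus, which share an instrument, differed in 8 members. Callosal values were higher in *Ctsz* (0.56 ± 0.13), *Ctss* (0.45 ± 0.13), *Lamp1* (0.39 ± 0.08), *Scarb2* (0.35 ± 0.09), *Ctsl* (0.30 ± 0.08) and *Asah1* (0.21 ± 0.07), and lower in *Ctsc* (−0.48 ± 0.14) and *Arsb* (−0.33 ± 0.07), against 8.89% and 8.84% of all genes. Adjusted p in limma ran from 0.000474 (*Lamp1*) to 0.0409 (*Asah1*). *Ctsz*, *Arsb* and *Lamp1* kept their calls under the 7 alternatives run and with each library left out. *Ctsl* was lost with the correction for length and GC content (adjusted p = 0.0794) and with the replicate block (0.101), *Asah1* with the block (0.162), and *Ctsc*, *Asah1* and *Scarb2* without the mixed libraries (0.0925, 0.0945 and 0.0509). All 12 oligodendrocyte markers were higher in corpus callosum (median 1.32) and 2 of 10 neuronal markers lower, and their part was not tested. The count fell to 4 without naive corpus callosum replicate 1 and to 5 without naive hippocampus replicate 1 or without the libraries of mixed sex-linked genes. Naive hippocampus stood above cortex in 8 members, with *Cd63* at 0.92, *Ctsc* at 0.54, *Grn* at 0.32, *Naglu* at 0.29, *Hexa* at 0.27, *Ctsa* at 0.21, *Arsa* at 0.20 and *Psap* at 0.15, and below it in *Asah1* (−0.35) and *Gla* (−0.34), against 20.9% and 19.7% of all genes. The share of members called higher was close to that of all genes. Without naive hippocampus replicate 2 the count was 6. With the replicate block the calls of *Ctsc*, *Ctsa*, *Naglu*, *Arsa*, *Psap* and *Grn* were lost, and with the correction for length and GC content those of *Hexa* (0.15), *Naglu* (0.26) and *Psap* (0.08). Without the mixed libraries *Ctsa*, *Hexa*, *Naglu* and *Psap* did not pass. Of the microglial markers 4 of 14 were higher in hippocampus than in cortex, as were 2 of 8 peripheral myeloid and 3 of 6 choroid plexus and ependymal markers, while 4 of 8 endothelial and mural and 2 of 10 neuronal markers were lower, and their part was not tested. By the order of the naive means, *Ctss* was highest in corpus callosum, intermediate in hippocampus and lowest in cortex, where the step from hippocampus to cortex (0.29 ± 0.12) did not pass (adjusted p = 0.066). *Ctsc* was highest in hippocampus, and corpus callosum and cortex were not called different for it.

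The effect of 12 weeks of cuprizone was compared between regions by a test of the difference itself. *Ctss* was the only member called, with an effect in corpus callosum below that in hippocampus by −0.82 ± 0.20 (adjusted p = 0.0352 in limma), where 1.00% of all genes had a higher and 0.539% a lower effect. It fell by 0.56 in the one and stood at 0.26 above naive in the other. The call was lost without 12-week replicate 1 or 2 or naive replicate 1 or 2 of the corpus callosum, and without 12-week replicate 2 or 3 or naive replicate 1 or 2 of the hippocampus, where the difference ranged from −0.95 to −0.67 over these and the correction for length and GC content. Between corpus callosum and cortex 1.56% of all genes had a higher and 0.839% a lower effect, and 0 members were called. *Hexa* stood at −0.41 ± 0.13 (adjusted p = 0.0828 in limma). The unadjusted p was below 0.05 for 7 of the 34 and for 3348 of all 17054 genes. Without naive corpus callosum replicate 2 the count of members called was 2. Between hippocampus and cortex 0% of all genes and 0 members were called, and *Gusb* stood at −0.35 ± 0.13 (adjusted p = 0.544).

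The acute and chronic lesions of the corpus callosum were set against each other by the difference of their effects, 3 weeks against naive minus 12 weeks against naive. Of 34 members 29 had the larger difference in the acute set, with a median of 0.39 against 0.026 over all genes. The unadjusted p was below 0.05 for 14 of the 34 and for 1035 of all 13947 genes. None was called, and 0.0574% of the 13947 genes in both sets were called higher and 0.0143% lower. *Ctsz* differed by 1.74 ± 0.29, *Cd68* by 1.74 ± 0.29, *Ctsd* by 1.49 ± 0.24 and *Gusb* by 1.30 ± 0.22, with adjusted p of 0.0612 or 0.0627 in limma. *Ctss*, *Cd63* and *Hexa*, which lay above naive at 3 weeks and fell at 12 weeks, differed by 1.53, 1.25 and 1.03 (adjusted p of 0.121, 0.121 and 0.138). *Mcoln1* was opposite, with −0.08 in the acute and 0.38 in the chronic set. The microglial markers had a median of 1.22 in this contrast, with 2 of 14 called. Without replicate 1 of the 5+1 weeks 16 members were higher and 1, *Arsa*, lower, and without chronic 12-week replicate 1 the count was 4. The shares of all genes called in these fits are not given here. The 2 sets were normalized separately and sequenced on different instruments, the acute naive mouse was younger, and these cannot be told apart from the length of the lesion.

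**Figure D5:**
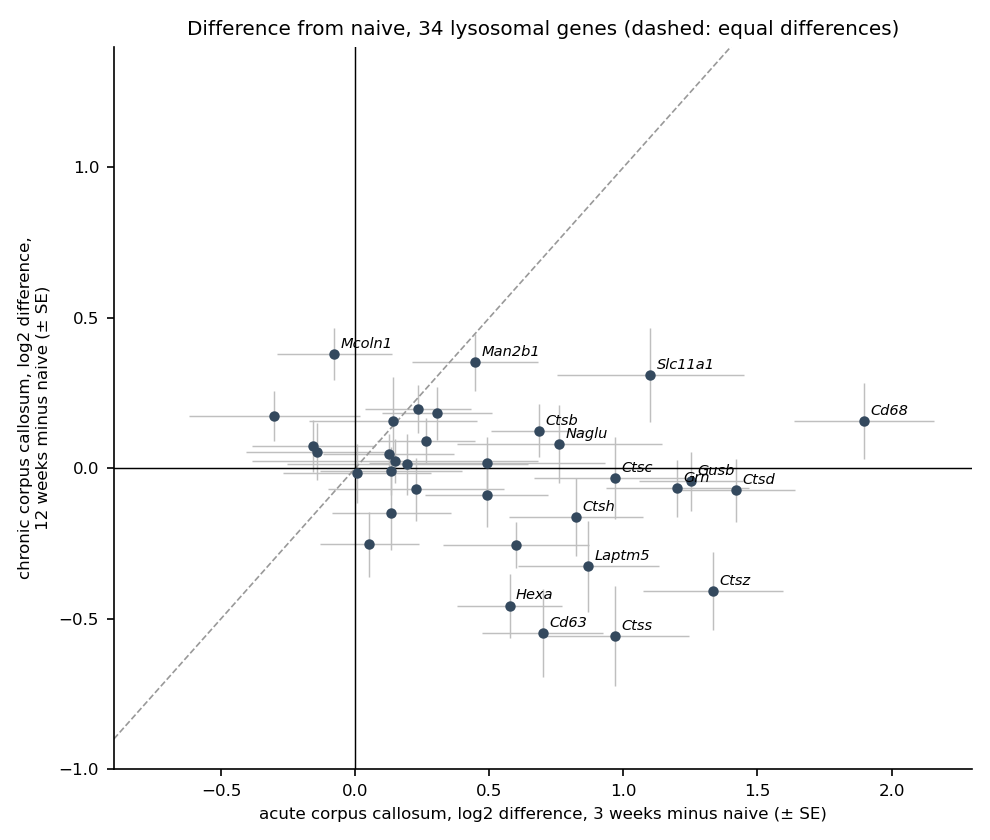
Log2 difference from naive of each lysosomal gene in the corpus callosum, after 3 weeks of cuprizone in the acute set (x axis) and after 12 weeks in the chronic set (y axis), with bars of 1 standard error and a dashed line of equal differences. *Cd68* lies at 1.90 and 0.16, *Ctss* at 0.97 and −0.56, and *Mcoln1* at −0.08 and 0.38.

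Other genes of the pathway, on lists chosen by function, are given by their counts. After 3 weeks in the acute set 0 of the 26 other hydrolases tested passed, with a median of 0.20 and *Dnase2a*, which degrades DNA, at 1.11 ± 0.27. The other membrane proteins, the 17 proton pump subunits tested, the 8 genes of mannose-6-phosphate sorting and the 13 genes of TFEB family factors and nutrient sensing had medians of 0.05, 0.07, 0.01 and −0.01, with 0 called. In the chronic corpus callosum at 12 weeks, where 9.98% of all genes were higher and 9.77% lower, each list had calls. Of the sensing genes 5 of 13 were lower, among them *Lamtor2* (−0.60, adjusted p = 0.0021) and *Lamtor5* (−0.51), which anchor mTORC1 signalling to the lysosome, and 1 was higher. Of 8 sorting genes 3 were higher, with *Gga3* at 0.54 and *Igf2r*, the large mannose-6-phosphate receptor, at 0.51. Of 18 proton pump subunits 3 were lower, with *Atp6v1g1* at −0.51 and *Atp6v1f* at −0.42, of 26 other hydrolases 2 were higher and 3 lower, and of 18 other membrane proteins 3 were higher and 3 lower. At 12+12 weeks against the same naive libraries, with 9.35% of all genes higher and 9.04% lower, 7 of 18 pump subunits were lower and 1 higher, and 4 sensing genes were lower and 1 higher. In the hippocampus and cortex at 12 weeks 0 genes of these lists were called. In the hippocampus at 12+12 against 12 weeks, where 6.53% of all genes were higher and 6.72% lower, *Tfeb* was higher by 0.47 (adjusted p = 0.0131 in limma), *Npc1*, a cholesterol transporter, by 0.41 and 4 of 18 pump subunits by 0.20 to 0.23, while *Galns* was lower by −0.37. In naive mice *Atp6v0c*, the ring subunit of the pump, stood 3.42 log2 units higher in corpus callosum and 3.74 higher in hippocampus than in cortex, and the instruments differed in the same way.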

How the data were processed

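RNA from 7 acute and 40 chronic libraries was sequenced, and the authors aligned reads to GRCm38/mm10 with TopHat2 (version 2.0.13) and normalized counts with DESeq2. The deposited values are log2 levels in the acute table and log2 values centred per gene over the 3 regions in the chronic tables. Deposited corpus callosum and hippocampus values ended in 0.5 of the last digit in 44.0% of cases and cortex values in 0%, as if each were the mean of a pair, so their spread may be understated. The files hold no counts, so no precision from depth was computed. The labels give 1 instrument for all libraries and the methods give 2, and the kit names differ too.

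Acute columns were mapped by the sample names of the study's sample sheet, since the order of the labels conflicts with it, and the other order was an alternative. Names turned into dates (27 per table) were dropped. Genes whose linear mean reached 10 (acute), or at the lowest value in at most 10 of 40 libraries (chronic), were tested with limma (version 3.58.1, R 4.3.3), with Benjamini-Hochberg adjustment over all 14536 or 17054 genes and a threshold of 0.05. The acute fit used the intensity trend and took the single naive library to vary like the others. Chronic regions were fitted apart, and contrasts between regions came from 1 fit of 40 libraries, all taken as independent although regions may share mice. On simulated data the chronic fits recovered 69% to 99% of planted changes of 1 log2 unit, depending on the comparison. Of planted changes of 0.5 they recovered 16% to 78%, so that a lack of chronic calls does not show that levels were alike. The acute fit of 7 libraries recovered neither size. Alternatives were no filter, quantile normalization, library weights, length and GC correction (loess, span 0.3), sex, replicate block and leaving libraries out. Named were members past the threshold and, per role group, up to 3 with the largest difference, and others after their values were seen. Of other pathway genes up to 2 per list are named. Members and lists were chosen with earlier results of these data known. Some results are not reported here.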

Additional observations from a re-analysis of the deposited data

Results flagged for a closer look

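*Glb1*, the beta-galactosidase that trims GM1 ganglioside, measured −0.17 in naive cortex replicate 3 and 0.06 to 0.08 in the other 3 naive cortex libraries. The gap of that library to the nearest other was 0.927 of the range of the group, past the 95% critical value of Dixon for a group of 4. All 34 members were examined in this group, the only one of 4 or more libraries, and chance marks about 1 in 20 groups.

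*Ctss* had an effect of 12 weeks of cuprizone in corpus callosum that differed from its effect in hippocampus by −0.82 ± 0.20 (adjusted p = 0.0352, limma interaction contrast with Benjamini-Hochberg adjustment). Both callosal libraries at 12 weeks lay below all 3 naive ones, whereas in hippocampus the groups overlapped. The adjusted p ranged from 0.00028 to 0.761 over the alternatives and left-out libraries. The highest came without the hippocampal libraries of mixed sex-linked genes, where fewer libraries remained and the difference was −0.98.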

How the results depend on the processing

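No difference changed sign among the values called. The counts of members called are given for the settings that moved them by over 1.5 times. Shares of all genes called are not given for these settings or for left-out libraries. The counts alone therefore do not set the members apart from other genes. In corpus callosum the count against naive stayed between 4 and 7 at 12 weeks over the settings other than left-out libraries, and between 4 and 6 at 12+12 weeks over those not named below, although single genes were lost or gained. With library weights 21 members were called at 3 weeks against naive, 10 at 5+1 weeks against naive, 11 between 5+1 and 3 weeks, 2 in corpus callosum at 12+8 against 12 weeks and 2 at 12+12 weeks against naive, 6 in hippocampus at 12+4 against 12 weeks, 6 and 1 for the effect in corpus callosum against that in hippocampus and in cortex, and 19 for acute against chronic. With length and GC correction they were 7 at 3 weeks, 5 between 5+1 and 3 weeks, 2 in hippocampus at 12+12 against 12 weeks, 0 for corpus callosum against hippocampus and 9 for acute against chronic. Without a filter they were 2 at 3 weeks, 1 and 3 in hippocampus at 12+8 and 12+12 against 12 weeks, and 7 for acute against chronic. With quantile normalization they were 3 and 3 for the effect in corpus callosum against hippocampus and cortex, and 2 for acute against chronic. With 1 fit over all 3 regions, chosen after seeing the data, they were 1 in corpus callosum, 0 in hippocampus and 2 in cortex at 12+12 against 12 weeks, and 3 in cortex at 12 weeks. Without the hippocampal libraries of mixed sex-linked genes they were 0 at 12+12 against 12 weeks, 5 and 6 for naive hippocampus against corpus callosum and cortex, and 0 for the effect in corpus callosum against hippocampus, and 12+8 weeks could not be run. The cause was not tested.

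Within a region, same-numbered chronic libraries of different groups did not deviate together, with correlations from −0.67 to 0.40. The medians were 0.0096, −0.0079 and 0.032 in corpus callosum, hippocampus and cortex. Libraries of different regions were not compared in this way, so that mice shared between regions were not examined. With the replicate block 3 members were called in corpus callosum at 12+12 weeks against naive, 0 in hippocampus at 12+12 against 12 weeks, 0 for corpus callosum against hippocampus and 5 for naive hippocampus against cortex. It was not run for the acute set, whose columns carry no label numbers. The order of the acute labels gave 0 calls, as did the order used. Since the acute fit did not recover planted changes, these counts cannot tell the orders apart. The column that the label order makes the naive female reads male, with *Xist* at 6.10. The column used as naive reads female, as labelled, with *Xist* at 11.79. In the order used, 3-week replicate 3 reads female (*Xist* 11.64), although the labels call that replicate male.

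Leaving out 1 library gave 0 to 8 members at 3 weeks, 0 to 4 at 5+1 weeks against naive and 0 to 10 between them. In corpus callosum it gave 0 to 6 at 12 weeks and 0 to 6 at 12+12 weeks against naive, and in hippocampus 0 to 2 at 12+8 weeks, the higher without 12+8-week replicate 1, and 0 to 2 at 12+12 against 12 weeks. The effect in corpus callosum against hippocampus gave 0 to 1 and against cortex 0 to 2, and acute against chronic 0 to 17. Naive corpus callosum gave 4 to 7 against hippocampus and 13 to 17 against cortex, and naive hippocampus against cortex 6 to 10.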
